A study of Drosophila melanogaster with 16 samples.

Results

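The Mid stage of muscle wasting in ras1G12V;csk-/- larvae of Drosophila melanogaster was compared with the average of the stages before and after it. The comparison took 12 of the 16 libraries, all made from body-wall muscle of larvae on a high-sugar diet (HSD, 1 M sucrose). There were 4 each from Early (day 12), Mid (day 14) and Late (day 16). The days are those of the library labels. For the early-stage muscle that it stained and scored, the paper gives an earlier day, so even spacing of the stages is not certain. For each gene, the mean of the log2 levels at Early and Late was subtracted from the log2 level at Mid, so that a gene that moved by equal log2 steps over the stages would score 0. A gene with a fitted Mid level above both other stages was termed a peak, and one below both a dip. Every library, the 4 from the control diet included (CD, 0.15 M sucrose, day 8), came from the same tumour genotype. Diet and age differed together between CD and the HSD stages, so CD levels are given as a reference only. The tumours were GFP-labelled MARCM clones made with an eyeless-driven recombinase, homozygous for a stop allele of csk (the kinase that inhibits Src) and expressing activated ras1, so the muscle that was sequenced was not the tissue transformed on purpose. Larvae without tumours were not analysed here. Each library held the pooled muscle of dissected larvae, and the labels do not tie libraries to separate cultures, so the p-values measure the spread between these pools.

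Larval body-wall muscle consists of large striated fibres packed with actin and myosin filaments and mitochondria. When muscle wastes, filament proteins are marked with ubiquitin and degraded by the proteasome, and organelles are broken down by autophagy. Fibroblast growth factors (FGFs) signal through receptor tyrosine kinases to Ras and ERK, and the study asked what part this pathway has in muscle of tumour-bearing larvae. A stage contrast of this form sets apart genes that moved by equal log2 steps from genes that were off this even course at Mid. The latter include genes transiently high or low at Mid and genes that changed mostly before or after it.

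Between 18641338 and 28698585 reads per HSD library were counted on genes, and 11279 of 15682 gene identifiers had enough reads to be tested. The median standard error of the contrast was 0.22 on the log2 scale. Mhc, the muscle myosin heavy chain, was present in all 12 libraries, from 407 to 21602 counts per 1000000 counted reads (CPM, on library sizes scaled by the TMM method), and it is a defining marker of the labelled tissue. In bulk tissue, fewer muscle cells and less RNA per cell cannot be told apart. The labels do not give the sex of the pooled larvae. lncRNA:roX1, an RNA specific to males, was at 16.0 CPM in Early 1 against 856 to 868 CPM in the other Early libraries, and at 238 CPM in Mid 4 against 687 to 2024 CPM in the other Mid libraries. Several of the values below are also given without 1 or 2 libraries.

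No gene passed the threshold in the Mid contrast. With edgeR's quasi-likelihood test and Benjamini-Hochberg adjustment over all genes tested, 0 genes (0%) were above and 0 genes (0%) below the mean of Early and Late at an adjusted p of 0.05, and the smallest adjusted p was 0.756. At an unadjusted p under 0.05 there were 714 genes (6.33%), 490 above (4.34%) and 224 below (1.99%). Of these, 460 were peaks and 160 were dips, and in the other 94 the Mid level lay between the 2 stages but off the middle. The DESeq2 Wald test on the same contrast called 16 genes, 6 above and 10 below, among them Rbp6 (adjusted p = 0.00997), Ttc19 (0.0275) and CG6908 (0.0433). The split by direction depended on the scaling: 68.6% of the 714 genes were above, but 53.6% of 670 with TMM factors from the 12 HSD libraries alone and 56.0% of 744 with DESeq2 size factors. All 4 Mid libraries exceeded all 8 others for 24 genes (0.213%) and lay below them for 8 genes (0.0709%). These counts are a description and were not set against the number that chance would give.

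**Figure D1:**
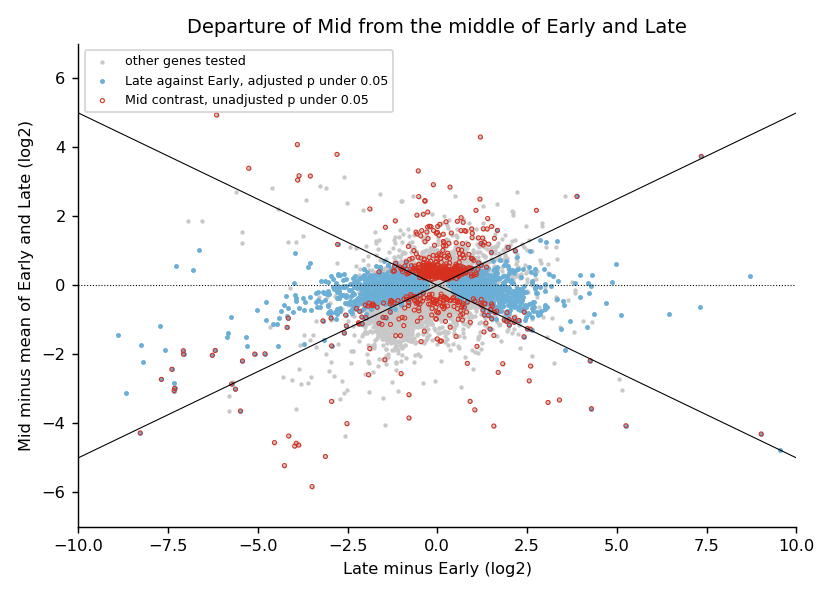
Log2 level at Mid minus the mean of Early and Late (vertical) against the log2 change from Early to Late (horizontal), 1 point for each gene tested. Above or below both diagonal lines the Mid level lies outside both stages. Blue points, the genes that differed between Late and Early, lie mostly between the lines, and red circles mark the 714 genes with an unadjusted p under 0.05, of which 620 lie outside both stages.

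Genes that differed between the end stages passed through Mid. From the same fit, Late differed from Early in 2594 genes, 1440 higher (12.8% of genes tested) and 1154 lower (10.2%), and 3920 (34.8%) had an unadjusted p under 0.05. At Mid, 2442 of these lay between the other 2 stages, 100 were peaks and 52 dips, so that 5.86% lay outside both. Of the 8685 genes that did not pass the threshold between Late and Early, 59.3% lay outside both, which needs only a small deviation when the end stages are alike. On a scale from 0% at Early to 100% at Late, the median position of Mid over the 2594 genes was 57.6% (quartiles 40.3% and 73.7%). It was 57.3% for genes that rose by Late and 58.4% for genes that fell. From Early to Mid and from Mid to Late no gene passed the threshold with edgeR, although 2397 (21.3%) and 1582 (14%) had an unadjusted p under 0.05. The smallest adjusted p between Mid and Early by edgeR was 0.0502, shared by 120 genes, so this count lay at the edge of the threshold. On all 12 HSD libraries, 5 other scalings, filters or edgeR fits called between 137 and 390 genes. The fit with a replicate block is not in that count, and its calls are given with the alternatives. DESeq2 called 1346 genes between Mid and Early and 741 between Mid and Late.

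**Figure D2:**
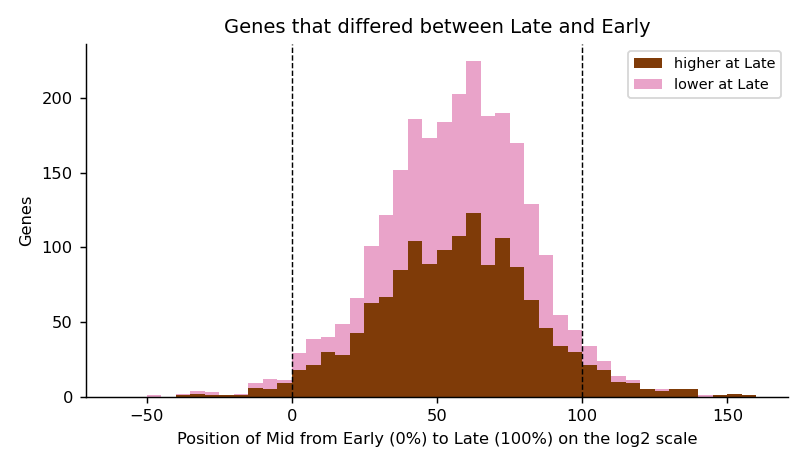
Position of the Mid level between Early (0%) and Late (100%) on the log2 scale, as a stacked count of the 2594 genes that differed between Late and Early. Most bars lie between the dashed lines at the end stages, around a median of 57.6%, for genes higher and lower at Late alike.

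The members of different pathways were at different points of this course at Mid. All 38 respiratory chain genes tested were lower at Late than at Early, and Mid had covered a median of 75.4% of that fall (range 51.5% to 90.4%). For glycolysis and trehalose genes the median was 68.8% over 15 genes with a difference between the end stages. It was 56.1% for 15 genes of the thick and thin filaments, close to the median of all genes, and 45.3% for 52 cytosolic ribosomal protein genes. For 30 genes of glutathione and cytochrome P450 detoxification it was 29.2%, and for the 10 genes of the unfolded protein and integrated stress list 41.5%. These positions describe genes selected for their end-stage difference, and no difference between lists was tested.

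Rbp6 had the smallest p of all genes above in the contrast. It encodes an RNA-binding protein of the Musashi family. Its level was 4.15, 8.61, 3.46 and 13.3 CPM in Mid 1 to 4, against 1.86, 1.12, 1.83 and 2.59 CPM in Early and 1.26, 2.19, 1.87 and 0.819 CPM in Late. All Mid libraries were above all others, with Mid 2 and Mid 4 the highest. The log2 difference was 2.13 (SE 0.41, unadjusted p = 2.5e-04, adjusted p = 0.756), a 4.37-fold ratio, and it was 1.17 without Mid 2 and Mid 4. CD libraries ranged from 1.32 to 8.51 CPM.

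Drice, an effector caspase that executes apoptosis, was at 156, 141, 121.9 and 124 CPM in Mid, 84.1, 94.99, 121.7 and 111 CPM in Early and 93.7, 85.7, 85.2 and 105 CPM in Late. The groups did not overlap, but the lowest Mid library and Early 3 were nearly equal. The log2 difference was 0.48 (SE 0.12, unadjusted p = 0.00157, not past the threshold after adjustment). Cul2, a cullin scaffold of ubiquitin ligases, was at 139, 243, 131 and 159 CPM in Mid, above the 82.3 to 114 CPM of Early and the 109 to 125 CPM of Late. Its log2 difference was 0.62 (SE 0.16), and 0.31 without Mid 2 and Mid 4. CG31635 was the fourth of the 10 leading peak genes without overlap, at 80.1 to 98.8 CPM in Mid, 53.7 to 71.4 CPM in Early and 70.4 to 79.1 CPM in Late (log2 difference 0.37, SE 0.09).

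The other 6 leading peak genes overlapped with Early or Late. Bhmt, named as a betaine-homocysteine methyltransferase, was at 207 to 281 CPM in Mid and 201 to 253 CPM in Early, but at 78.4 to 141 CPM in Late, so it stood level and then fell (log2 difference 0.64, SE 0.16, and Late lower than Early with an adjusted p of 0.0024 by edgeR). CG13075 had the opposite shape. It had no reads in 3 Early libraries and 0.16 CPM in Early 2, against 5.84, 17.8, 12.6 and 0.909 CPM in Mid and 2.78 to 16.3 CPM in Late, so that Mid and Late were alike. CG9636 and lncRNA:CR43144 were also higher at Late than at Early, with log2 contrasts of 0.38 and 1.60, and that of lncRNA:CR43144 was 0.62 without Mid 2 and Mid 4. eEF1alpha2, an isoform of the translation elongation factor that brings aminoacyl-tRNA to the ribosome, was at 18.6 and 17.2 CPM in Mid 2 and Mid 4 but 7.58 and 9.21 CPM in Mid 1 and Mid 3, where Early and Late libraries held 4.28 to 8.92 CPM. Its log2 difference was 1.15 (SE 0.28) with all libraries and 0.51 without Mid 2 and Mid 4. CG32813 had a log2 difference of 0.44 (SE 0.10), and Early 3 overlapped with Mid. The highest of the 12 libraries was Mid 2 for 6 of the 10 genes, Mid 1 for 2, and Mid 3 and Mid 4 for 1 each. Of all 460 peak genes at an unadjusted p under 0.05, Mid 2 was highest for 210 and Mid 1 for 132. Mid 4 was highest for 48 and Mid 3 for 37. Over all 11279 genes tested, Mid 2 was highest for 1051, Mid 1 for 807, Mid 3 for 422 and Mid 4 for 238.

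Ttc19 led the genes below. Its product maintains complex III of the mitochondrial respiratory chain in mammals. It was at 6.27, 9.76, 9.02 and 8.89 CPM in Mid, 16.4, 11.1, 14.2 and 16.2 CPM in Early and 11.4, 19.7, 13.9 and 14.0 CPM in Late. Every Mid library was below every other, and Early and Late were alike (Late minus Early 0.03). The log2 difference was -0.78 (SE 0.19, unadjusted p = 0.00137, adjusted p = 0.756). CD libraries, at 8.26 to 13.7 CPM, overlapped with Mid.

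GstT1, a theta-class glutathione S-transferase that conjugates toxic compounds, was at 53.3, 50.6, 53.3 and 46.7 CPM in Mid, where Early had 57.9 to 83.8 CPM and Late 56.4 to 89.8 CPM (log2 difference -0.50, SE 0.14). Mid did not overlap with the other stages. GstT2, of the same class and not among the 10 leading dips (named here after its values were seen), also had no overlap, at 12.9 to 13.9 CPM in Mid, 14.3 to 23.1 CPM in Early and 15.8 to 19.2 CPM in Late. Reads shared between related genes could add to both. CG13024 was the third leading dip without overlap, at 3.33 to 4.51 CPM in Mid, 7.32 to 34.2 CPM in Early and 4.596 to 10.8 CPM in Late (log2 difference -1.46, SE 0.42).

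Cyp6d2, a cytochrome P450, was at 24.5, 22.2, 20.8 and 17.4 CPM in Mid and 20.6 to 27.5 CPM in Early, and then at 41.5, 106, 54.6 and 41.0 CPM in Late. Mid overlapped with Early, and the low contrast value (-0.86, SE 0.25) reflects a level that was higher only at Late. CG4630, CG6908 and CG11893 had the same order of levels, with log2 contrasts of -1.27, -2.27 and -2.18. CG11893 was below 1 CPM in every Early and Mid library and at 2.35 to 19.5 CPM in Late. CG12895, with a log2 difference of -0.50, was already at 8.70 to 10.7 CPM in Mid, close to the 9.85 to 11.5 CPM of Late, after 15.03 to 23.02 CPM in Early. CG9410 and CG1806 were lower in Mid than the means of both stages, by log2 differences of -0.80 and -0.42, with libraries that overlapped. Late 2 was the highest of the 12 libraries for 7 of the 10 leading dips. Of the 160 dips at an unadjusted p under 0.05, Early 1 was highest for 49 and Late 2 for 48. Over all 11279 genes tested, Late 2 was highest for 1757 and Early 1 for 1362.

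**Figure D3:**
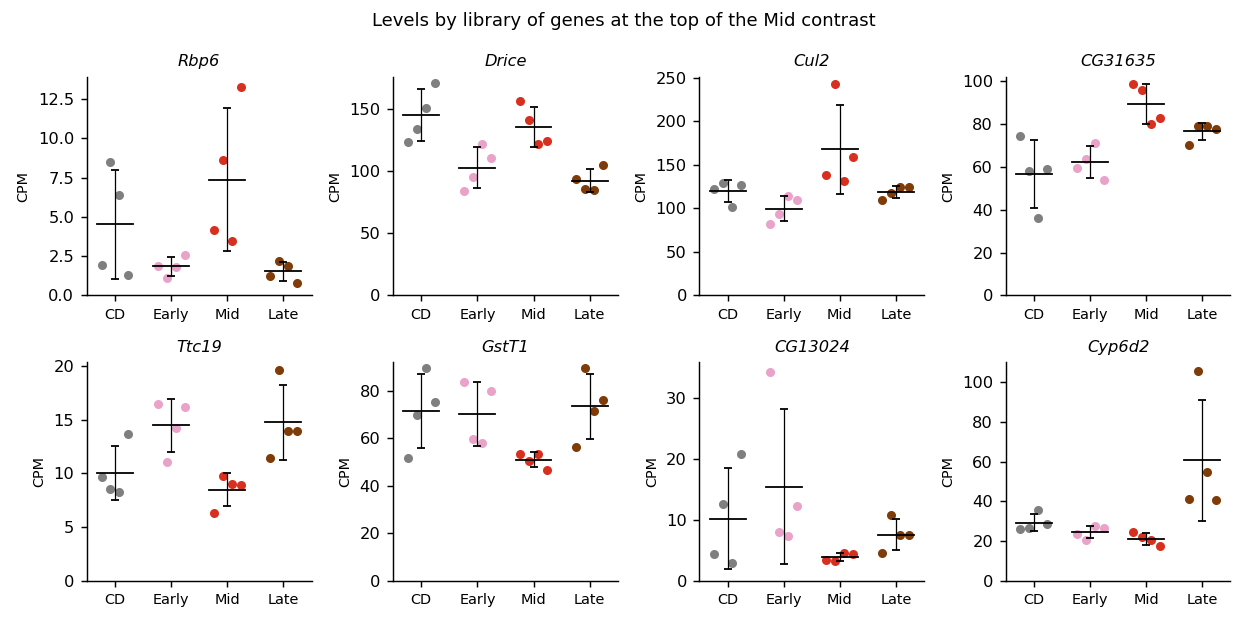
CPM by library for 4 leading peak genes (top) and 4 leading dip genes (bottom), with points for libraries and bars for the mean and SD of 4 libraries. In Rbp6, Drice, Cul2, CG31635, Ttc19, GstT1 and CG13024 the Mid points lie on 1 side of all Early and Late points, and in Cyp6d2 the Mid points overlap with Early.

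Genes of the contractile apparatus fell from Early to Late, and none of them passed the Mid test. Of the 17 thick and thin filament genes tested, 15 fell from Early to Late, with a median log2 change of -2.63 over the list. At Mid, 15 of the 17 lay between the stages, and the median of the contrast was -0.20, against -0.02 over all genes tested. Without Mid 2 and Mid 4 it was 0.15, so the list had no stable side of the middle. Mhc was at 21602, 5651, 9528 and 8811 CPM in Early, 2763, 690, 2460 and 1698 CPM in Mid and 1326, 779, 407 and 970 CPM in Late. Mid and Late overlapped, and Mid had covered 69.6% of the fall. TpnC47D, a calcium-sensing troponin C, and Mlp60A, a LIM protein of muscle, had covered 63.7% and 70.6%. The giant proteins stood at an earlier point. sls, the titin-like protein that links myosin to the Z-disc, was at 2689, 2063, 2582 and 2497 CPM in Mid, against 2125 to 3701 CPM in Early and 1098 to 1523 CPM in Late, so that 29.3% of its fall was covered (log2 contrast 0.27, unadjusted p = 0.127). Msp300, a nesprin that anchors nuclei, was at 1908 to 2642 CPM in Mid and 1620 to 2970 CPM in Early, with 2.34% of its fall covered (contrast 0.32, unadjusted p = 0.0785). sls and Msp300 were chosen with their values known, and the difference between them and Mhc was not tested.

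Over the 18 genes of the Z-disc, M-line and attachment list the median contrast was 0.09, with 4 peaks (22.2%) and 0 dips. Among all genes tested, 21.6% were peaks and 25.4% were dips. kon, a transmembrane protein of muscle attachment, was at 103, 85.1, 66.6 and 82.0 CPM in Mid, 36.6 to 68.1 CPM in Early and 64.1 to 78.9 CPM in Late (contrast 0.52, SE 0.17, unadjusted p = 0.0089). It was the only member of the list at an unadjusted p under 0.05. how, an RNA-binding protein of muscle and tendon differentiation, had a contrast of 0.33 (SE 0.14), with Mid at 242 to 333 CPM, Early at 209 to 291 CPM and Late at 183 to 247 CPM.

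Genes of energy metabolism stood nearer to their Late than to their Early level at Mid. The 38 respiratory chain genes all had a negative contrast (5965 of 11279 among all genes tested) and all lay between Early and Late. Of the 38, 8 had an unadjusted p under 0.05, where 1.99% of all genes tested were below at this level. The median of the 38 genes was -0.44. The median was -0.26 without Early 1 and -0.25 without Mid 2 and Mid 4. Their summed level was 9454 to 24077 CPM in Early, 4717 to 7174 CPM in Mid and 4308 to 4944 CPM in Late. ATPsynC, the ring subunit of ATP synthase, was at 707, 459, 809 and 651 CPM in Mid, below the 1157 to 2838 CPM of Early and overlapping with the 486 to 593 CPM of Late (contrast -0.58, SE 0.24). COX7C, a subunit of cytochrome c oxidase, and ND-23 and ND-B17, subunits of complex I, had contrasts of -0.63, -0.44 and -0.44. In glycolysis, 18 of 23 genes were below the mean of the end stages and 21.7% above, against 47.1% of all genes tested. There were 1 peak and 3 dips (13.0%, against 25.4%), with a median contrast of -0.25. The median was -0.14 without Early 1. Gapdh2, which oxidises glyceraldehyde 3-phosphate, was at 570, 390, 824 and 592 CPM in Mid, after 1345 to 5314 CPM in Early and with 335 to 532 CPM in Late (contrast -0.86, SE 0.36). Eno, the enolase of the same pathway, had a contrast of -0.76 (SE 0.29). Without Early 1 the contrasts of Gapdh2 and Eno were -0.56 and -0.53. The 59 cytosolic ribosomal protein genes stayed near the middle, with a median contrast of 0.04.

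Proteasome genes were mostly peaks. All 32 genes had a positive contrast, between 0.24 and 0.50 with a median of 0.37, and 27 (84.4%) were peaks, where 21.6% of all genes tested were. All 32 were positive under each of the other scalings too, where 21 to 25 were peaks. No member passed the threshold after adjustment, and 8 had an unadjusted p under 0.05. Rpn1, a scaffold of the regulatory particle, was at 517, 720, 642 and 477 CPM in Mid, 269, 486, 508 and 485 CPM in Early and 404, 371, 358 and 467 CPM in Late. Mid 4 overlapped with Early and was just above Late, and Early 1 was far below the other Early libraries. The log2 contrast was 0.50 (SE 0.18, unadjusted p = 0.0175). Rpt1, an ATPase of the same particle, had a contrast of 0.44 (SE 0.17), and Rpn8 and Rpn13, of its lid and its ubiquitin receptor, 0.40 and 0.35. The summed level of the 32 genes was 10466, 13784, 12558 and 8834 CPM in Mid 1 to 4. It was 6779, 10899, 10431 and 12420 CPM in Early and 8194, 6516, 7261 and 9202 CPM in Late, so the stages overlapped. Every CD library, at 15418 to 21901 CPM, was above every HSD library. Mid 2 was the highest HSD library for 21 of the 32 genes, and Early 1 or Late 2 the lowest for 31 of them. The median contrast was 0.25 without Mid 2, 0.30 without Early 1 and 0.37 without both Mid 2 and Mid 4, with 31 of 32 genes as peaks in the last case.

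Genes of autophagy and of FOXO-dependent atrophy had a median contrast of 0.17, with 20 of 25 above (80%) and 11 peaks (44%). Among all genes tested, 47.1% were above and 21.6% were peaks. Atg2, which transfers lipid to the growing autophagosome, was at 189, 223, 147 and 148 CPM in Mid, 104 to 152 CPM in Early and 128 to 162 CPM in Late (contrast 0.43, SE 0.14, unadjusted p = 0.0108). Atg6, the Beclin 1 of the fly, and Atg3, the conjugating enzyme for Atg8, had contrasts of 0.36 and 0.27. Sesn, a stress-induced inhibitor of TOR, had 0.55 (SE 0.26, unadjusted p = 0.0534). Mid 1 and Mid 2 were the highest libraries for Atg2, Atg6 and Sesn. Mid 3 and Mid 4 overlapped with Early and Late for Atg2 and Sesn, and with Early alone for Atg6.

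In the list of heat shock genes and chaperones, 16 of 24 were above (66.7%, against 47.1% of all genes tested). There were 8 peaks (33.3%, against 21.6%), and the median contrast was 0.25. It ranged from 0.07 (without Mid 2) to 0.44 (without Late 4) when 1 library was left out. stv, a BAG-domain partner of Hsp70 that maintains muscle under load, was at 476, 326, 299 and 382 CPM in Mid, 148 to 286 CPM in Early and 256 to 375 CPM in Late (contrast 0.57, SE 0.19). Mid was above Early without overlap and overlapped with Late. Hsp70Bbb had a contrast of 2.58 (SE 0.85), or 1.47 without Mid 4. It was at 22.5 and 55.4 CPM in Mid 1 and Mid 4 and 3.55 and 3.46 CPM in Mid 2 and Mid 3. Every Early library was lower, at 1.75 CPM or less, and Late overlapped with Mid. From Early to Late Hsp70Bbb rose by a log2 difference of 3.89 (adjusted p = 0.0315 by edgeR), and Mid minus Late was 0.64. Its reads can be shared with near-identical Hsp70 copies. Hsp60A, the mitochondrial chaperonin, went the other way, at 191 to 271 CPM in Mid, 212 to 355 CPM in Early and 299 to 504 CPM in Late (contrast -0.44, SE 0.18).

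**Figure D4:**
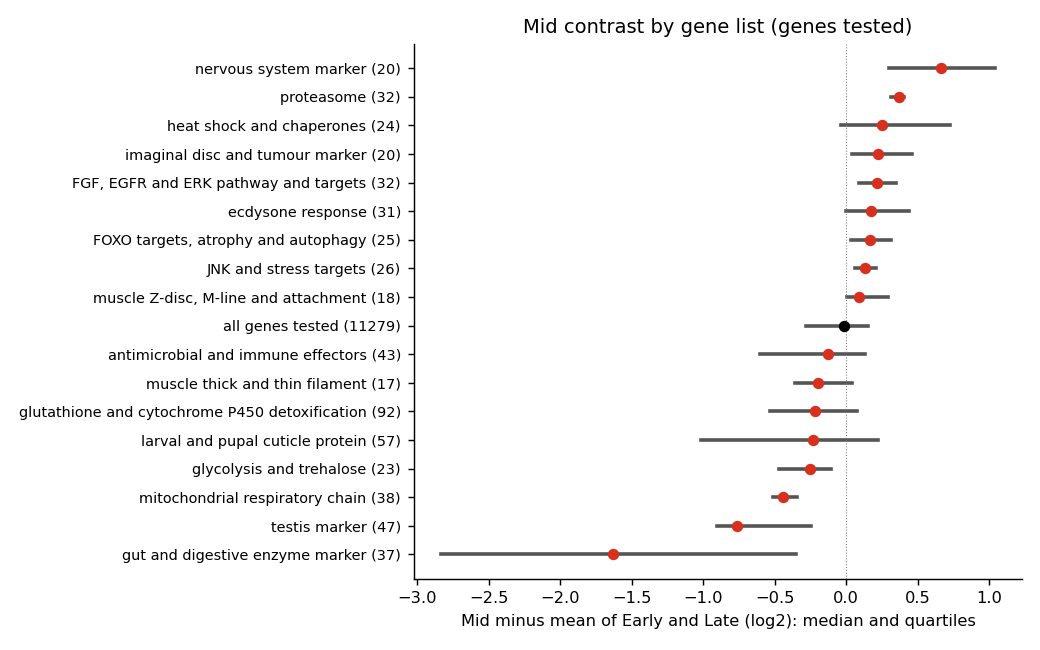
Median and quartiles, over the genes of each list, of the log2 level at Mid minus the mean of Early and Late, with the number of genes tested in brackets. The black point is the median of all 11279 genes tested (-0.02), and proteasome and nervous system genes lie to its right and respiratory chain, testis and gut genes to its left.

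Ligands and targets of the FGF, EGFR and ERK pathway were all on the upper side of the line. All 32 genes tested had a positive contrast (median 0.21), or 30 of 32 with DESeq2 size factors or TMM factors from the 12 HSD libraries and 23 of 32 without Mid 2 and Mid 4. Of the 32, 13 (40.6%) were peaks and 19 lay between the stages. After adjustment 0 passed the threshold, and 5 had an unadjusted p under 0.05. Among all genes tested, 47.1% had a positive contrast, 21.6% were peaks and 4.34% were above at an unadjusted p under 0.05. The list's score per library, the median over its genes of log2 (CPM + 0.5) relative to the gene's HSD mean, was 0.01, 0.20, 0.04 and 0.20 in Mid. It was -0.44 to -0.06 in Early and 0.12 to 0.32 in Late, so that Mid was above Early without overlap and overlapped with Late. Of the genes with an end-stage difference, 14 rose and 1 fell, and Mid had covered a median of 63.3% of the way.

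bnl, the FGF ligand of the receptor Btl, was at 15.7, 43.1, 14.8 and 24.7 CPM in Mid, 18.8, 10.8, 16.5 and 15.6 CPM in Early and 14.0, 15.7, 14.5 and 16.2 CPM in Late. Only Mid 2 and Mid 4 were above the other libraries. The log2 contrast was 0.69 (SE 0.26, unadjusted p = 0.0226), and it was -0.0024 without those 2 libraries. Of the ligands of the FGF receptor Htl, ths was at 4.49 to 7.15 CPM in Mid, 1.83 to 3.57 CPM in Early and 3.07 to 9.09 CPM in Late (contrast 0.73, SE 0.32), and pyr had a contrast of 0.44 (SE 0.25), or 0.15 without Mid 1. htl itself, the receptor of muscle precursors, was at 26.9 to 46.2 CPM in Mid, 18.4 to 31.9 CPM in Early and 23.6 to 33.4 CPM in Late (contrast 0.38, SE 0.17, and 0.22 without Mid 1). rho, the protease that releases EGFR ligands, was at 86.3, 60.8, 92.1 and 86.8 CPM in Mid, where all but Mid 2 were above the 51.0 to 78.3 CPM of Early and the 52.5 to 68.6 CPM of Late (contrast 0.35, SE 0.14). grk, an EGFR ligand best known from the oocyte, stood level from Early to Mid and was lower in Late (contrast 0.41, SE 0.17, and 0.27 without Mid 1).

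path, the amino acid transporter that the study followed, lay between the stages. It was at 180, 141, 82.0 and 166 CPM in Mid, 64.6 to 108 CPM in Early and 240 to 530 CPM in Late. Mid had covered 32.5% of the rise, and its contrast of -0.38 (SE 0.26) did not pass (unadjusted p = 0.169).

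**Figure D5:**
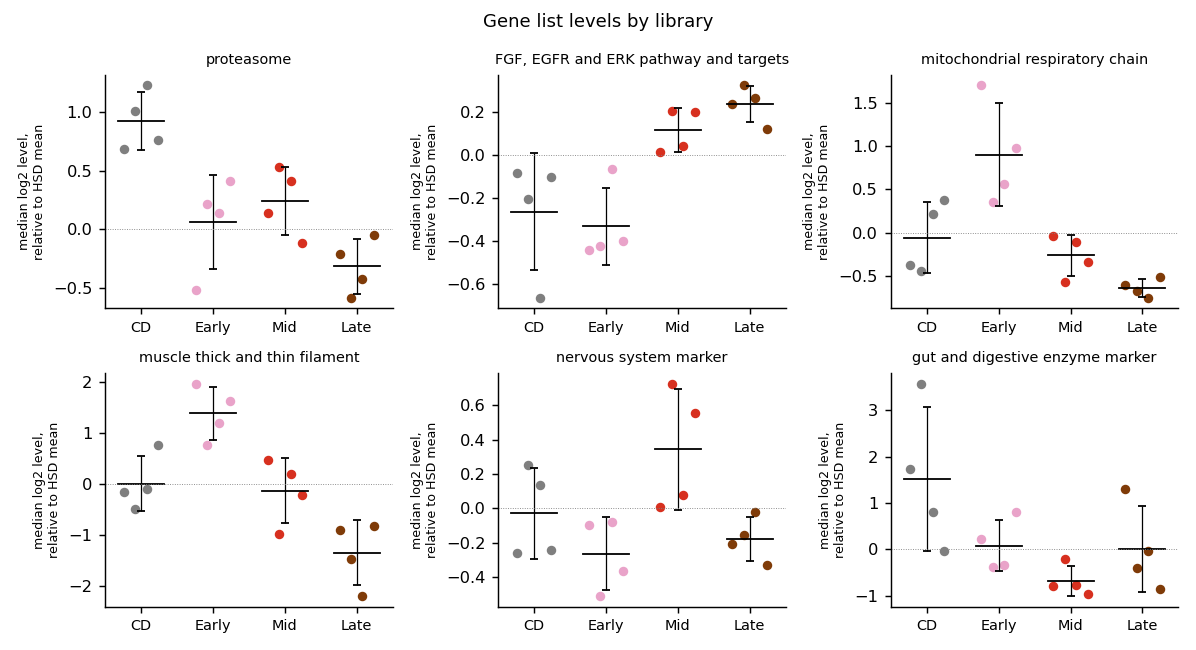
Score of 6 gene lists by library (median over genes of log2 level relative to the HSD mean), with points for libraries and bars for the mean and SD of 4 libraries. Proteasome scores are highest in CD, FGF and ERK scores are lowest in Early and highest in Late, respiratory chain and filament scores are the reverse, and in the nervous system panel Mid 2 and Mid 4 stand above the rest.

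Stress and hormone signalling gave mixed values. In the JNK list 22 of 26 genes were above (84.6%, median 0.13), with 10 peaks (38.5%) and 2 dips (7.69%). Among all genes tested, 47.1% were above, 21.6% were peaks and 25.4% were dips. The receptor wgn of the fly tumour necrosis factor was at 111, 107, 75.9 and 85.9 CPM in Mid, 58.7 to 96.3 CPM in Early and 55.4 to 88.6 CPM in Late (contrast 0.47, SE 0.17). Its ligand egr had a contrast of opposite sign, -0.45 (SE 0.19), at 21.3 to 25.7 CPM in Mid against 19.7 to 38.6 CPM in Early and 25.4 to 45.7 CPM in Late. scaf, a serine protease homologue and JNK target, was at 49.9 to 120 CPM in Mid, after 173 to 444 CPM in Early and with 76.5 to 156 CPM in Late (contrast -0.93, SE 0.31). slpr, a kinase upstream of JNK, had a contrast of 0.26 (SE 0.10).

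Of 31 ecdysone response genes, 23 were above (74.2%, against 47.1% of all genes tested), with a median of 0.18, or -0.12 without Mid 2. There were 9 peaks (29.0%, against 21.6%) and 1 dip (3.23%, against 25.4%). Eip63F-1, a calcium-binding protein induced by ecdysone, was at 203, 133, 170 and 171 CPM in Mid, 120 to 180 CPM in Early and 78.2 to 129 CPM in Late (contrast 0.51, SE 0.16, unadjusted p = 0.0075). The early ecdysone transcription factors Eip75B and Eip74EF had contrasts of 0.40 and 0.44, and that of Eip75B was 0.20 without Mid 2. The cell death gene rpr was level from Early to Mid, at 3.15 to 6.60 CPM and 3.04 to 6.35 CPM, and higher in Late, at 11.6 to 14.5 CPM (contrast -0.60, SE 0.25).

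Of 43 antimicrobial and immune genes, 27 were below and 37.2% above, against 47.1% above among all genes tested, and 14 (32.6%) were dips, against 25.4%. The median of -0.13 ranged from -0.28 (without Mid 1) to -0.05 (without Late 3). dl, the Dorsal transcription factor of the Toll pathway, was above, at 243, 207, 176 and 197 CPM in Mid, 81.7 to 156 CPM in Early and 143 to 187 CPM in Late (contrast 0.53, SE 0.16). PGRP-SA, the receptor that recognises peptidoglycan for Toll, was at 10.1 to 14.7 CPM in Mid, 15.3 to 18.2 CPM in Early and 13.4 to 50.1 CPM in Late (contrast -0.83, SE 0.29), and BomBc3, a Toll-induced peptide, had a contrast of -1.10 (SE 0.44). In the detoxification list 66 of 92 genes were below (median -0.22, or -0.43 without Mid 1 and -0.09 without Late 3), with 28 dips (30.4%) and 11 peaks, and 11 were below at an unadjusted p under 0.05 against 1 above. Without Mid 2 and Mid 4 the sides were even, with 47 of 93 below. GstD10, a delta-class glutathione S-transferase, was at 3.46 to 8.32 CPM in Mid, 10.3 to 39.1 CPM in Early and 6.47 to 34.1 CPM in Late (contrast -1.63, SE 0.52).

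Markers of other tissues moved with some of these values, and their part in the results was not tested. Of 20 nervous system markers, 18 were above (90%, median 0.67) and 17 were peaks (85%). Among all genes tested, 47.1% were above and 21.6% were peaks. The score of the list was 0.01, 0.73, 0.08 and 0.56 in Mid, -0.51 to -0.08 in Early and -0.33 to -0.02 in Late, so Mid did not overlap with the other stages but Mid 2 and Mid 4 stood apart. For 15 of the 20 genes the highest HSD library was Mid 2 or Mid 4, as it was for 1289 of all 11279 genes tested. The neuronal RNA-binding protein elav was at 21.8 to 31.4 CPM in Mid, 13.6 to 23.4 CPM in Early and 15.9 to 26.8 CPM in Late. Appl, the fly homologue of the amyloid precursor protein, was at 9.84, 19.9, 9.17 and 51.0 CPM in Mid and at 2.92 to 10.4 CPM in the other HSD libraries (contrast 1.71, SE 0.45). Without Mid 2 and Mid 4 its contrast was 0.47 and the median of the list 0.30.

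Over all 11279 genes tested, the highest HSD library was Mid 4 for 238 and Late 1 for 697. For 8 of the 20 genes of the disc and tumour list it was Mid 4, and for the other 12 it was Late 1. Among the former, eya, a cofactor of eye development, was at 2.56, 4.53, 5.97 and 28.15 CPM in Mid and at 1.75 to 5.01 CPM in Early and Late, and toy, a Pax6 gene, at 2.56, 5.06, 1.24 and 20.8 CPM in Mid. Their contrasts were 1.70 and 1.64, and without Mid 2 and Mid 4 they were 0.43 and -0.33. Over the 20 genes the median was 0.22, and 0.04 without Mid 4 and -0.01 without Early 1 and Mid 4.

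Gut and digestive enzyme genes were mostly low at Mid. Of 37 genes tested 31 were below, 24 were dips (64.9%, against 25.4% of all genes), and the median contrast was -1.63. Scores of the list overlapped, at -0.97 to -0.21 in Mid, -0.38 to 0.80 in Early and -0.85 to 1.31 in Late. The size of the median contrast depended on the libraries, and it stayed between -2.53 and -0.94 when 1 library was left out. Jon65Aiii, a gut serine protease, was at 1.25, 4.53, 2.18 and 0.741 CPM in Mid, 5.41, 4.81, 754 and 104 CPM in Early and 46.3, 2.89, 5.26 and 0.761 CPM in Late, so Early 3 was far above all others, and its reads can be shared with Jon65Aiv. Amy-p, an amylase, had at most 0.0673 CPM in Mid and at most 0.451 CPM in Early, and 1.20 to 7.74 CPM in Late. The median of the list was -0.94 without Late 1, -0.69 without Early 1 and Mid 4, and -2.29 without Mid 2 and Mid 4. Mal-B2, a maltase on the same list, was above, at 500, 321, 313 and 314 CPM in Mid, 116 to 246 CPM in Early and 170 to 317 CPM in Late (contrast 0.86, SE 0.22, unadjusted p = 0.00247).

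Of 47 testis markers, 41 were below (median -0.76) and 12.8% above, where 47.1% of all genes tested were above. Of the 47, 31 were dips (66.0%, against 25.4%), and 0 had an unadjusted p under 0.05. Early 2 was the highest HSD library for 39 of the 47 markers and Early 1 the lowest for 26. Over all 11279 genes tested these numbers were 1588 and 2656. Early and Late scores ranged from -1.67 to 2.87 and from -1.67 to 1.86, and Mid scores, from -1.66 to 1.21, lay within both. The median of the list was -0.11 without Early 2 and 0.09 without Late 4. With the roX1 level as a covariate, 0 genes passed the Mid contrast, and the median of the gut list was -0.74. Cuticle protein genes had a median contrast of -0.23 over 57 genes, with 9 peaks (15.8%) and 8 dips (14.0%). Among all genes tested, 21.6% were peaks and 25.4% were dips. Cpr67Fa2 stood near its Late level at Mid, from 39.9 to 304 CPM in Early to 1.24 to 7.21 CPM in Mid and 2.34 to 3.98 CPM in Late (contrast -2.19, SE 0.60, DESeq2 adjusted p = 0.0492). Cpr47Ec had a similar course, from 324 to 1887 CPM to 3.37 to 61.9 CPM and 6.11 to 18.4 CPM.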

How the data were processed

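Pooled body-wall muscle was sequenced as stranded mRNA libraries. The authors trimmed reads with Trim Galore, aligned them to dm3 with TopHat2 (2.0.11 per the labels) and counted them with featureCounts. The deposited values are raw counts per gene. The strand setting and annotation release are not given in the sources used here, so overlapping antisense genes may share reads. Symbols came from a later annotation (95.7% of identifiers matched), so no positions are given.

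Counts were filtered with filterByExpr (minimum count 10, total 15), scaled with TMM over 16 libraries, and tested with edgeR 4.0.16 in R 4.3.3 by a quasi-likelihood fit to the 12 HSD libraries. P-values were adjusted over all 11279 genes (Benjamini-Hochberg, threshold 0.05). The biological coefficient of variation was 0.647. Steps were tested on simulated data.

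Since fewer than 5 genes passed in each direction, the text names the 10 with the smallest p in each whose Mid level lay outside both stages, up to 4 genes per list by p, and genes the study followed. Others were chosen after their values were seen. The members and the 35 lists (1059 of 1196 symbols matched) were chosen with earlier results of these data known. No set test was run. Alternatives were 3 scalings, 2 filters, removal of the 20 most counted genes, DESeq2 1.42.0, a fit to 16 libraries, a replicate block, thinning, a roX1 covariate and each library left out. The newer quasi-likelihood method of edgeR and 2 pairs of left-out libraries were added after seeing the data. No 2 libraries of the same group were copies of each other, and pairs from different groups were not compared.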

Additional observations from a re-analysis of the deposited data

Results flagged for a closer look

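Among 303 groups of 4 libraries examined by Dixon's criterion, 19 held a library far from the other 3, and chance flags about 1 in 20 groups. In Early, the low library was Early 1 for Rpn8 (227 CPM), Rpn1 (269 CPM) and lncRNA:roX1 (16.0 CPM) and Early 2 for Appl (2.92 CPM). The high one was Early 3 for CG32813 (44.3 CPM), pyr (79.6 CPM) and wgn (96.3 CPM), and for the list scores of FGF, EGFR and ERK genes (-0.0650) and of JNK genes (-0.0589). In Mid, CG9410 in Mid 4 (6.16 CPM), rho in Mid 2 (60.8 CPM) and Cpr11A in Mid 2 (62.0 CPM) were far below the others. Mal-B2 in Mid 1 (499.6 CPM) and the scores of detoxification genes in Mid 1 (0.37) and of ecdysone genes in Mid 2 (0.62) were far above. In Late, CG31635 in Late 1 (70.4 CPM) and GstE5 in Late 3 (9.31 CPM) were low, and dpp (45.6 CPM) and Eno (661 CPM) were high in Late 2.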

How the results depend on the processing

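The count of genes past the threshold in the Mid contrast was 0 in each direction under every alternative run except DESeq2, which called 6 above and 10 below. Of these 16, 6 were peaks, 9 were dips, 5 passed both single comparisons with Early and Late, and 6 had no overlap in counts scaled by the size factors of DESeq2, or 3 on the CPM used elsewhere. At an unadjusted p under 0.05, the count below was 447 with DESeq2. Without Mid 2 and Mid 4 the counts were 186 above and 83 below, and without Early 1 and Mid 4 the count below was 94. Leaving out 1 library gave 272 (without Mid 2) to 867 (without Early 3) above and 109 (without Mid 4) to 348 (without Early 2) below.

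Calls between Mid and Early, 0 as reported, were 219 with DESeq2 size factors, 285 with upper-quartile scaling, 390 at a mean of at least 10 CPM, 1346 with DESeq2, 224 in the fit to 16 libraries, 180 with the replicate block, 137 after thinning, 274 with adjusted deviances, and 0 to 808 (without Early 3) leaving out 1 library. Calls between Mid and Late were 741 with DESeq2, 1 in the fit to 16 libraries, 1 with adjusted deviances, and 0 to 136 (without Late 4) leaving out 1 library. Calls between Late and Early were 1536 without Early 1 and Mid 4, and 1664 (without Late 2) to 2685 leaving out 1 library. The cause of these shifts was not tested.

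The median of the gut list was -2.83 at a mean of at least 10 CPM, -0.74 with the roX1 covariate, -2.29 without Mid 2 and Mid 4, -0.69 without Early 1 and Mid 4, and -2.53 to -0.94 leaving out 1 library. That of the nervous system list was 0.33 at a mean of at least 10 CPM and 0.30 without Mid 2 and Mid 4. Without Mid 2 and Mid 4 the contrast reversed for bnl (-0.0024), toy (-0.33) and danr (-1.66).

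The labels do not say whether libraries with the same replicate number were prepared together. Their mean residual correlation was 0.0279 over 12 pairs, from -0.64 to 0.58, against -0.00805 over 36 others. With a range this wide, the mean cannot settle whether they were pairs. With the replicate block, 0 genes passed the Mid contrast, and the median of the testis list was 1.18. Thinned to the lowest HSD total, the libraries gave 485 genes above and 216 below at an unadjusted p under 0.05.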

Other observations

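Some genes outside the naming rule were chosen after their values were seen. They were among the 24 genes (0.213% of genes tested) with all Mid libraries above the other HSD libraries. Snoo, a transcriptional co-regulator of the TGF-beta pathway, was at 78.5, 79.3, 83.0 and 80.6 CPM in Mid, 49.0 to 77.8 CPM in Early and 56.7 to 69.1 CPM in Late (contrast 0.40, SE 0.12). dsh, the Dishevelled adaptor of Wnt signalling, was at 33.1 to 39.0 CPM in Mid, 24.6 to 30.6 CPM in Early and 29.9 to 32.4 CPM in Late (contrast 0.29, SE 0.09). Cbl, a ubiquitin ligase that turns off receptor tyrosine kinases, was at 50.7 to 52.6 CPM in Mid, where Early had 39.4 to 47.4 CPM and Late 38.2 to 46.5 CPM (contrast 0.24, SE 0.08). Ube3a, another ubiquitin ligase, was at 92.2 to 138 CPM in Mid, 51.5 to 91.7 CPM in Early and 84.4 to 91.7 CPM in Late (contrast 0.43, SE 0.15). None of the 4 genes passed the adjusted threshold (adjusted p = 0.756 for each, edgeR's quasi-likelihood test).

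The octopamine receptor Oamb, which is expressed in the nervous system, showed the same pattern at a low level. It was at 1.02 to 1.69 CPM in Mid and at most 0.849 CPM in the other HSD libraries. Hml, a haemocyte gene, was at 478, 532, 856 and 722 CPM in Mid (contrast 0.41, SE 0.17). It was at 403 to 544 CPM in Early and 404 to 625 CPM in Late. Of 18 haemocyte markers, 13 were above (72.2%, against 47.1% of all genes tested), with a median of 0.15. Of 33 genes of DNA replication and the cell cycle, 24 were above (72.7%), with a median of 0.07. Of the 33, 6 were peaks (18.2%, against 21.6% of all genes tested).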
